A study of Homo sapiens with 21 samples.

Results

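OCI-AML5, a human acute myeloid leukemia cell line, was compared after 72 h in UM171 and in the solvent DMSO. Both groups were chosen by their labels, 3 libraries each, and make up 6 of the 21 libraries of the series. UM171 is a small molecule used to expand blood stem cells ex vivo. The labels give a dose of 500 nM for the UM171 group and a time of 72 h for both groups. This is thus the only UM171 time whose label matches that of the controls. Elsewhere the study states a lower dose and calls the DMSO libraries untreated, and it names a different medium, so neither the dose nor the control's time in culture is settled. Neither group carries an edited gene according to the labels. The series design states that RNA came from sorted subsets, but no label names a gate, and the study describes sorting for cord blood cells. Whether these libraries came from sorted cells is thus not settled. Both groups share the line, a single leukemia with its own genetic changes. Nothing states that the 3 libraries of a group came from separate cultures, so the p-values below measure the spread between these libraries, which may be technical.

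UM171 is known to direct the ubiquitin ligase adaptor KBTBD4 to the LSD1-CoREST complex, which is then degraded. LSD1, encoded by KDM1A, removes methyl groups from histone H3 lysine 4 at enhancers, and with its CoREST partners it keeps genes of other blood lineages low in myeloid cells. UM171 has also been linked to inflammatory signalling and to the surface protein EPCR, encoded by PROCR, the endothelial receptor of protein C.

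Values are given as TPM, a length-normalized share of all transcripts that corrects for transcript length and library depth. Fold changes and standard errors (SE) are on the log2 scale and come from an edgeR quasi-likelihood fit to the read counts. Calls required a change over 2-fold together with an adjusted p (Benjamini-Hochberg) below 0.0001. Of 16575 genes tested, 2486 rose (15%) and 962 fell (5.8%) at 72 h. The median log2 fold change over all tested genes was 0.02. In 3427 of the 3448 called genes the 3 UM171 libraries did not overlap the 3 DMSO libraries in TPM, against 11920 (71.9%) of all tested genes. The rises were also larger, since 1185 genes rose and 128 fell by over 4-fold, and 331 rose and 19 fell by over 16-fold. At the fold limit the change was gradual, with 350 genes of adjusted p under 0.0001 between 1.9 and 2-fold and 307 between 2 and 2.1-fold. Because the RNA was measured per library, fewer cells making a transcript and less of it per cell cannot be told apart.

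Depth was alike in both groups, 33.6 to 38.3 M counts in DMSO and 32.4 to 38.6 M at 72 h. Mitochondrial transcripts took 7.77 to 9.39% of the counts in DMSO and 9.53 to 11.1% at 72 h, and their part in the results was not tested. Of 9 markers of the line's myeloid identity 3 rose and 1 fell, and all 9 were detected in every library. CD33 lay between 177 and 179 TPM in DMSO and between 150 and 162 TPM at 72 h, and LYZ, the lysozyme of monocytes and granulocytes, lay between 650 and 1814 TPM in all 6 libraries. SPI1 fell from 403 to 426 TPM in DMSO to 204 to 226 TPM, and CEBPA, at 86.2 to 92.3 TPM in DMSO and 45 to 51.7 TPM at 72 h, was not called. The erythroid genes HBB, HBA2, ALAS2 and AHSP were at 0 TPM throughout.

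Genes that rose were mostly low in DMSO, while genes that fell were mostly abundant there. Among 662 tested genes under 0.1 TPM in DMSO, 337 rose and 1 fell. Among 1423 genes at 100 TPM or more, 28 rose and 128 fell. Part of this slope lies in the filter, because a gene that is silent in DMSO was tested only where another group expressed it. Protein-coding genes and long noncoding RNAs rose at similar shares, 15.8% of 13054 and 14.8% of 2100 tested. Of the risen genes with a non-overlapping neighbour among the tested genes, 39% lay next to another risen gene, against 24.5% of all tested genes. For the fallen genes these shares were 12.6% and 8.99%.

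**Figure D1:**
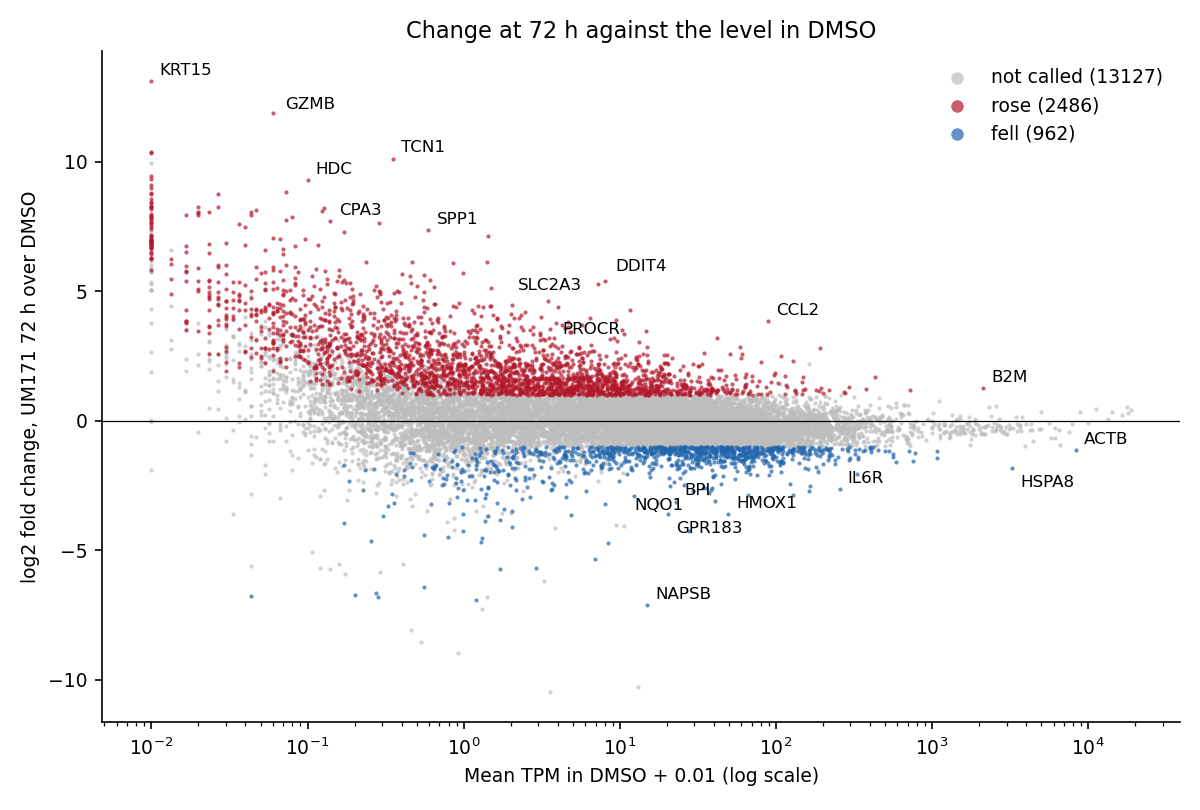
Each point is 1 tested gene, with its mean TPM in DMSO plus 0.01 on a logarithmic horizontal axis and its log2 fold change at 72 h over DMSO on the vertical axis. The 2486 genes that rose (red) spread up to a fitted value of 13.11 at the low end of the axis, and the 962 that fell (blue) lie mainly above 1 TPM.

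**Figure D2:**
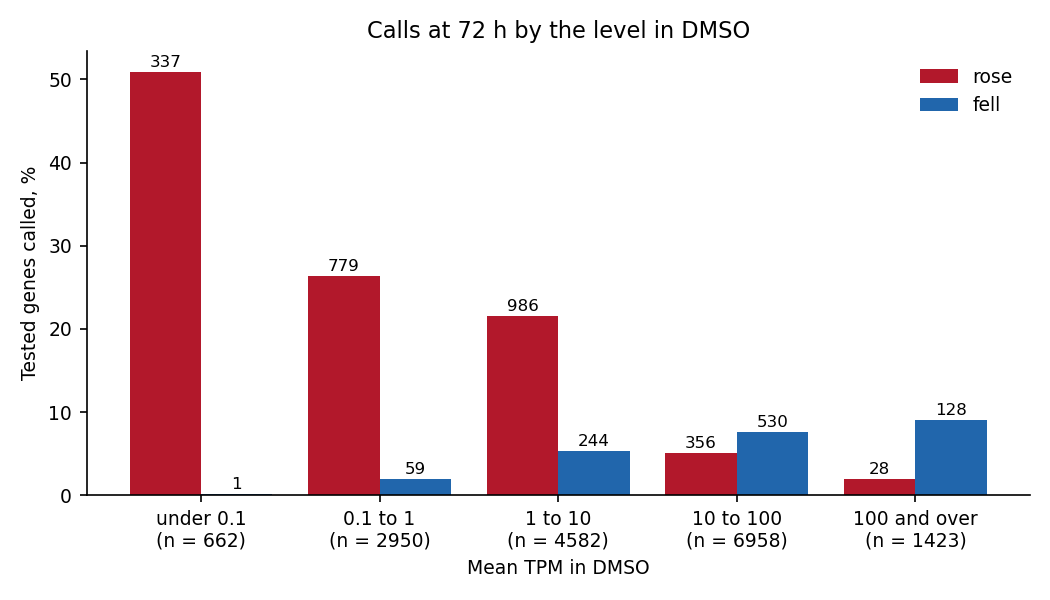
Bars give the percentage of tested genes that rose (red) or fell (blue) at 72 h in 5 ranges of mean DMSO TPM, with the number of genes above each bar. The share that rose went from 50.9% under 0.1 TPM to 1.97% at 100 TPM and over, and the share that fell from 0.151% to 9%.

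The degraded complex itself was looked at first. KDM1A was at 72.8, 75.0 and 71.7 TPM in DMSO and at 75.8, 79.0 and 78.4 TPM at 72 h, with a log2 fold change of 0.01 (SE 0.03, adjusted p = 0.76). The sign of this small value turned under other settings, to -0.005 both without a filter on low counts and without the third DMSO library. RCOR1, which encodes CoREST, went from 46.1 ± 2.43 to 34.5 ± 2.28 TPM (SD, n = 3 each), a decrease under 2-fold. KBTBD4 fell from 16.8, 15.5 and 14.8 TPM to 6.21, 8.28 and 7.65 TPM, a log2 fold change of -1.27 (SE 0.06, adjusted p = 1.7e-12). The transcript of the ligase adaptor through which UM171 acts was thus lower in each UM171 library than in any DMSO library. PHF21A, the complex member that binds unmethylated lysine 4, rose from 10.2 ± 0.20 to 48.8 ± 0.72 TPM, or 5.31-fold. RCOR2 and ZMYM3 also rose, RCOR2 from a low level of 0.34 to 1.18 TPM. In all, 3 of 14 tested members of the list rose and 1 fell, with a median log2 fold change of 0.01.

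Among the lists with 8 or more tested members, the highest median was that of mast cells, basophils and eosinophils. These granulocytes and tissue cells store histamine, proteases and basic proteins in granules, and mast cells depend on the factors GATA2 and MITF. Of the 24 genes of this list 14 were tested, 11 rose and none fell, and the median log2 fold change was 3.89. Since 10 of its genes were too low to test, these counts describe only the members that some group expressed. The untested genes were GATA1, MS4A2, CMA1, MRGPRX2, EPX, CLC, PRG3, SIGLEC8, CCR3 and IL5RA. HDC, the enzyme that makes histamine, was at 0.08, 0.11 and 0.08 TPM in DMSO and at 43.4, 58.6 and 52.9 TPM at 72 h, a 623-fold rise (log2 9.28, SE 0.25, adjusted p = 3.3e-15). CPA3, the mast cell carboxypeptidase, went from 0.18, 0.10 and 0.11 TPM to 26.7, 26.1 and 26.9 TPM. ENPP3, the basophil surface marker CD203c, went from 0.16 ± 0.09 to 20.7 ± 2.07 TPM. All 3 genes were close to silent in every DMSO library and clearly expressed in every UM171 library.

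Other members started from a measurable level. PRG2, the eosinophil major basic protein, rose from 10.4, 13 and 11.6 TPM to 202, 246 and 212 TPM. TPSAB1, a tryptase, rose 11.3-fold to 122 ± 4.15 TPM, and TPSB2 rose 11.3-fold to 13.9 ± 1.18 TPM. These tryptase genes are near copies that share reads, so their split is uncertain. GATA2 rose from 33.8 ± 0.26 to 165 ± 6.26 TPM and MITF from 2.38 ± 0.23 to 28.3 ± 0.59 TPM. FCER1A, the alpha chain of the IgE receptor, rose from 0.07 ± 0.01 to 1.73 ± 0.40 TPM and stayed low. HPGDS, which makes prostaglandin D2, had 1 count summed over the DMSO libraries and 438 over the UM171 libraries, a ratio of 419 with an exact 95% interval of 74.9 to 16602 that covers counting error only.

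**Figure D3:**
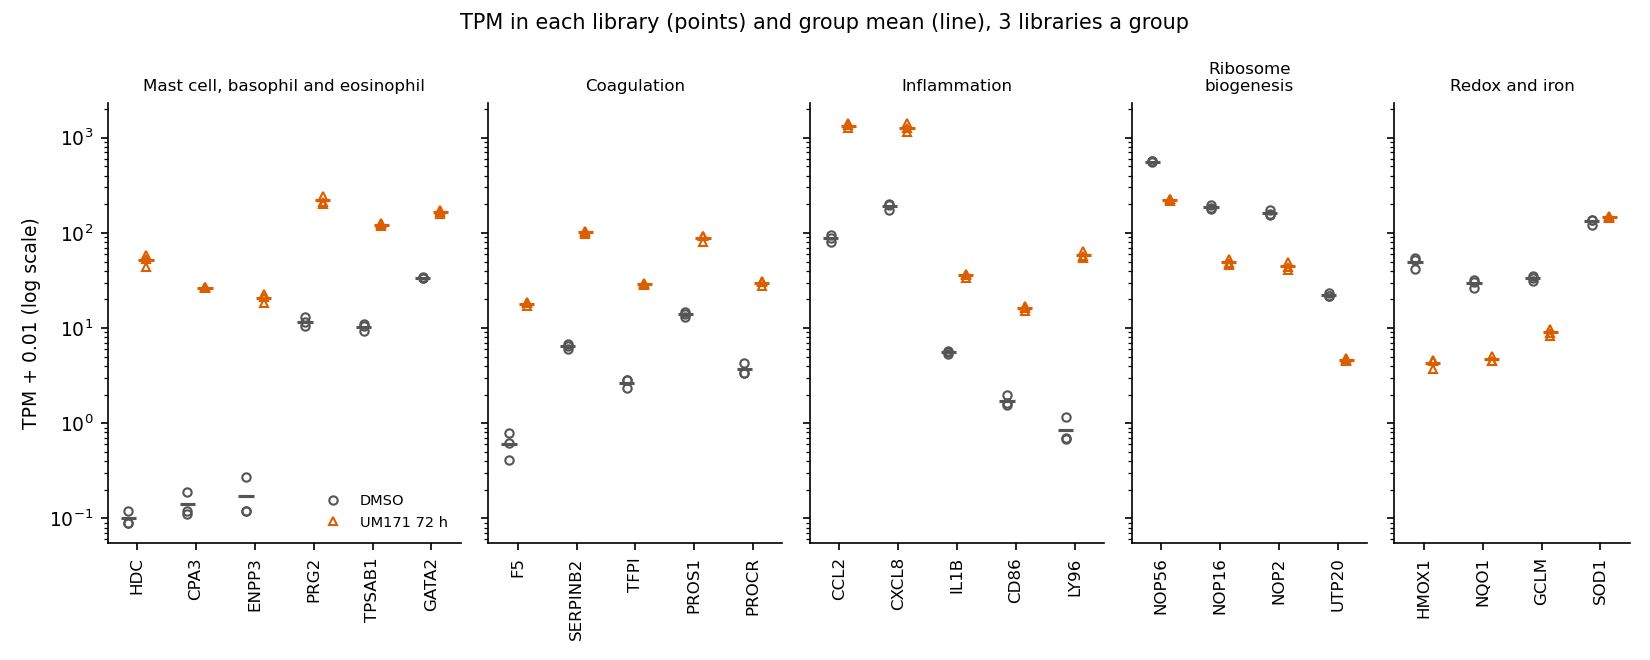
Points are the TPM plus 0.01 of each library on a logarithmic axis, circles for DMSO and triangles for UM171 72 h, with a line at the mean of the 3 libraries. The groups do not overlap for any gene shown, which also holds for 71.9% of all tested genes. SOD1, which was not called, is the closest at 122 to 138 TPM in DMSO and 143 to 151 TPM at 72 h.

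The promoters of CPA3 and FCER1A, chosen among the risen members that held the GATA letters, are shown as RefSeq gives them on GRCh38.p14. Each runs from 250 bases before to 50 after the start site. Capitals mark the GATA letters AGATAA on either strand.

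CPA3: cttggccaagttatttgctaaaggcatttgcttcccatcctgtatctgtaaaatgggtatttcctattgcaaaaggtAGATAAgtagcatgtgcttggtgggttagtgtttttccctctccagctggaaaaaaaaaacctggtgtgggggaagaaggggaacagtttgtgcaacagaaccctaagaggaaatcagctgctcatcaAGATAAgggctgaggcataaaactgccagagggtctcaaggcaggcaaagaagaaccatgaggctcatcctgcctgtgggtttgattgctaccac
FCER1A: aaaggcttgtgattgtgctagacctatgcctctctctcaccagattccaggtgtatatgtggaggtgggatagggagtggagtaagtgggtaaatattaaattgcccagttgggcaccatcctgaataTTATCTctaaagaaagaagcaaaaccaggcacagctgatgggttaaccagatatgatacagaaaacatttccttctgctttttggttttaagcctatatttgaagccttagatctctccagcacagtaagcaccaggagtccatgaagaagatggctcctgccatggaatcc

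The CPA3 window is chr3:148865046-148865345 on the plus strand, with matches at positions -173 and -45 from the start. The FCER1A window is chr1:159302086-159302385 on the plus strand, with a match at position -122. Of the 7 risen list members with a RefSeq promoter 3 held the motif, and of the 3 members that did not rise none did. Over all 27305 promoters 10.5% held it, and over the 11356 of tested genes 5.43%. A match shows the letters only.

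Some genes were silent in DMSO and became strongly expressed. Of the called genes 218 had at most 3 counts in each DMSO library, and all 218 rose, the only direction open to them. They comprised 152 protein-coding genes and 47 long noncoding RNAs, and 82 reached a mean of 1 TPM. KRT15, a keratin of basal epithelium, had 0 counts in all DMSO libraries and 985 to 1168 counts in the UM171 libraries, at 39.9, 46.8 and 41.5 TPM. This is at least 1059-fold higher than a floor of 3 counts over the DMSO group. KRT13 went from 4 to 992 summed counts. Among the epithelial markers EPCAM rose from 2 to 42 summed counts, to 0.21 to 0.58 TPM, a call that DESeq2 did not make, while KRT5 and KRT20 were at 0 in all UM171 libraries. Of the fibroblast and endothelial markers the collagens COL1A1, COL1A2 and COL3A1 rose, to no more than 1.66 TPM, while LUM was at 0 in all 6 libraries.

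GZMB, the protease granzyme B of cytotoxic lymphocytes, had 2 counts summed over DMSO and 9235 over UM171, and reached 159, 172 and 169 TPM. Its ratio of 4421 has an exact interval of 1224 to 36513. CD22, a Siglec receptor of B cells, rose from 0.11, 0.20 and 0.04 TPM to 14.9, 15.2 and 18.4 TPM. Of the other B cell markers, CD79B rose to 2.31 TPM, CD79A went from 9.67 to 21.8 TPM and PAX5 from 0 to 0.21 TPM, while MS4A1 was at 0 TPM in all 6 libraries. CD3D of the T cell receptor complex rose from 0.45 to 16.1 TPM, with CD3E and CD3G at no more than 0.05 TPM. Single genes of lymphoid cells thus rose while CD3E and MS4A1 stayed at or near 0. Summed over the list, B cell markers went from 9.68 to 10.5 TPM in DMSO to 38.4 to 42 TPM, and T and NK cell markers from 40.9 to 42.8 TPM to 117 to 119 TPM.

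TCN1, the vitamin B12 carrier of neutrophil granules, rose from 0.51, 0.22 and 0.30 TPM to 186, 204 and 207 TPM. SPP1, osteopontin, rose 165-fold from 0.58 ± 0.26 to 78.1 ± 5.93 TPM. SERPINB3 and SERPINB4 rose to 16.7 and 27.8 TPM from 0.07 and 0.11 TPM, but they are near copies on chromosome 18 whose reads may be split. GJA1, the gap junction protein connexin 43, rose from 0.06 to 29.7 TPM. RGS5, a regulator of G protein signalling, rose from 1.40 ± 0.17 to 69.7 ± 3.81 TPM. DNASE2, the lysosomal DNase, rose from 0.99 ± 0.16 to 46.7 ± 3.41 TPM.

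The next lists concern inflammation. Of 18 tested genes of the interleukin-1 family and the inflammasome 10 rose and none fell, with a median log2 fold change of 1.94. IL1B, the secreted cytokine, rose from 5.62, 5.39 and 5.77 TPM to 33.7, 36.3 and 37.0 TPM (6.20-fold, log2 2.63, SE 0.09). IL33, an alarmin released by damaged cells, and its receptor gene IL1RL1 both went from at most 0.03 TPM in each DMSO library to 4.22 ± 0.19 and 5.57 ± 0.32 TPM. IL18R1 rose from 1.12 to 12.5 TPM and NLRP1, an inflammasome sensor, from 0.74 to 6.82 TPM.

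Chemokines gave some of the largest gains in transcript number. Of 17 tested chemokines and receptors 9 rose and none fell, with a median of 1.25. CCL2, which attracts monocytes, rose from 80.7, 89.3 and 95.3 TPM to 1257, 1414 and 1349 TPM (log2 3.84, SE 0.13, adjusted p = 7.6e-14). CXCL8, which attracts neutrophils, rose from 191 ± 13.9 to 1272 ± 135 TPM. CCL5 rose from 80.2 to 413 TPM and CCL3 from 2.1 to 40.2 TPM. CCL2 and CXCL8 led in level, while the largest fitted fold changes were those of CXCL11 and CCL20, which stayed at 0.90 and 1.85 TPM.

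Among ligands that costimulate or restrain T cells, 7 of 15 rose and none fell, with a median of 1.02. CD86 rose from 1.62, 1.55 and 1.96 TPM to 15.1, 16.1 and 17.0 TPM (9.10-fold). CD276 rose from 17.4 to 58.5 TPM, and CD40 and CD274 stayed under 3 TPM. Of the Toll-like receptors and adaptors 7 of 19 rose, led in level by LY96, the MD-2 partner of TLR4, which went from 0.84 ± 0.27 to 59.1 ± 5.45 TPM. Of 33 interferon-stimulated genes 9 rose and none fell, with a median of 0.55. Among them IFI16, a DNA sensor, rose from 34.4 to 179 TPM and BST2, tetherin, from 47.6 to 165 TPM.

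The NF-kB list held rises beside decreases that stayed under 2-fold. Of 22 tested subunits and inhibitors 6 rose and none fell, yet the median was -0.31. NFKB2 rose from 9.92, 8.75 and 9.39 TPM to 31.6, 32.2 and 33.6 TPM, and its partner RELB from 1.44 ± 0.23 to 5.25 ± 0.31 TPM. These encode the alternative pathway. RELA and NFKB1 of the classical pathway were lower at 72 h, at 45.7 against 61.7 TPM and 35.1 against 56.6 TPM, with log2 changes of -0.54 (SE 0.07) and -0.75 (SE 0.04) that did not reach 2-fold. The other members that rose were BCL3, TNFAIP3, BIRC3 and TRAF1. The activity of either pathway was not tested. Of the AP-1 and early growth response factors 7 of 18 rose and 2 fell. EGR1 rose from 1.94 ± 0.11 to 26.1 ± 0.52 TPM and IER3 from 2.78 to 35.9 TPM, while FOSL1 fell from 28.4 to 8.23 TPM and FOS from 32.0 to 14.1 TPM.

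Of 15 tested coagulation genes 10 rose and 2 fell, with a median of 1.70. PROCR rose from 3.37, 4.30 and 3.38 TPM to 27.3, 30.6 and 31.3 TPM (7.80-fold, log2 2.96, SE 0.09, adjusted p = 1.2e-14). The protein C pathway needs thrombomodulin, encoded by THBD, to activate protein C, and PROS1 as its cofactor. THBD fell from 8.33 ± 0.41 to 3.23 ± 0.03 TPM, whereas PROS1 rose from 14 ± 0.80 to 88.7 ± 6.84 TPM. F5, the factor that activated protein C cleaves, rose from 0.60 ± 0.19 to 18.0 ± 0.87 TPM, or 43.0-fold. TFPI, the inhibitor of tissue factor, rose 11.3-fold to 29.1 TPM, and F3, tissue factor itself, rose 4.22-fold to 8.11 TPM. F2R, the thrombin receptor PAR1, rose from 9.24 to 30.4 TPM. SERPINB2, which inhibits urokinase, rose from 6.44 ± 0.40 to 102 ± 2.99 TPM. Receptor, cofactor, substrate and inhibitor genes thus rose beside a fall of THBD and of F2RL3.

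Surface receptors of myeloid cells changed in both directions. Of 17 tested integrins and adhesion genes 9 rose and 1 fell. ITGAM, the CD11b chain, rose from 13.2 ± 1.10 to 98.3 ± 2.16 TPM and ITGB3 from 0.18 to 3.08 TPM, while ITGAL, the CD11a chain, fell from 251, 234 and 229 TPM to 92.6, 84.1 and 87.6 TPM. IL6R, a receptor of interleukin-6, fell from 254, 253 and 259 TPM to 49.7, 39.7 and 43.3 TPM (log2 -2.64, SE 0.04, adjusted p = 1.4e-17). FLT3 also fell, whereas IL7R rose from 3.65 to 22.0 TPM and EPOR from 2.04 to 10.9 TPM. Among stem and progenitor regulators 5 of 24 rose and 2 fell. HOXA9 rose from 16.6 to 52.8 TPM and MEIS1 from 1.93 to 3.75 TPM, while CD34 fell from 4.71 ± 0.41 to 1.08 ± 0.14 TPM and the myeloid factor SPI1 from 417 ± 12.1 to 216 ± 10.7 TPM. SPI1 lay just past the fold limit at a log2 change of -1.0.

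Of 15 tested monocyte and macrophage genes 6 rose and 2 fell, with a median of 0.94. VCAN, the proteoglycan versican, rose from 19.2 to 89.9 TPM and CD36, a scavenger receptor, from 4.23 to 27.6 TPM, while FCN1, a ficolin, fell from 8.24 to 3.72 TPM and MARCO, another scavenger receptor, from 9.2 to 4.01 TPM. NAPSB, an aspartic protease pseudogene, fell from 14.1, 15.7 and 14.9 TPM to 0.21, 0.10 and 0.11 TPM, a log2 change of -7.12 (SE 0.19). TIFAB, an inhibitor of TRAF6 signalling, fell from 27.9 ± 1.3 to 1.54 ± 0.09 TPM. DCANP1 overlaps TIFAB on the same strand of chromosome 5, so its fall from 4.83 to 0.41 TPM may rest on shared reads. GPR183, an oxysterol receptor that guides leukocytes, fell from 20.3 ± 0.86 to 1.76 ± 0.18 TPM. MPEG1, the macrophage pore protein perforin-2, fell from 39.8, 40.1 and 41.6 TPM to 4.94, 5.08 and 4.98 TPM, and BPI, a granule protein that kills gram-negative bacteria, fell from 22.8 ± 0.55 to 2.72 ± 0.07 TPM. MS4A6A of monocytes fell from 66.1 to 10.2 TPM. Within the list of neutrophil granule proteins BPI fell while LYZ, CTSG, CAMP, AZU1 and MS4A3 rose, so 5 of 11 tested members rose and 1 fell.

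Lipid mediators also changed. Of 19 tested eicosanoid genes 9 rose and 1 fell, with a median of 0.99. PTGS2, the inducible cyclooxygenase, rose from 0.96, 1.58 and 1.14 TPM to 24.2, 27.2 and 24.7 TPM. ALOX5AP, which feeds leukotriene synthesis, rose from 1.74 to 21.8 TPM and ALOX5 itself from 5.4 to 14.3 TPM. PTGER2, a receptor of prostaglandin E2, fell from 35.5 ± 1.91 to 6.31 ± 0.44 TPM.

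Several groups of metabolic genes rose. The transcription factor ATF4 is translated when amino acids are short and drives genes that make, import and charge amino acids. Of 30 tested aminoacyl-tRNA synthetases and ATF4 targets 16 rose and 1 fell, with a median of 1.21. Among the tested synthetases only AARS1 and WARS1 rose, so the synthetases did not rise as a group and most risen members were other ATF4 targets. DDIT4, an inhibitor of mTORC1, rose from 7.34, 8.40 and 8.19 TPM to 301, 380 and 355 TPM (41.8-fold, log2 5.39, SE 0.14). CHAC1, which degrades glutathione, rose from 4.28 ± 0.20 to 58.7 ± 3.92 TPM. PHGDH and PSAT1, which start serine synthesis, rose from 42.2 to 406 TPM and from 59.2 to 447 TPM. ASNS, asparagine synthetase, rose from 51.1 ± 0.51 to 337 ± 22.3 TPM, WARS1 from 60.7 to 374 TPM and ATF4 from 292 ± 7.21 to 768 ± 17.9 TPM. RARS1 was the member that fell, from 92.1 to 46.0 TPM.

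The promoters of CHAC1 and ASNS are printed because both genes rose and their promoters hold the letters marked here. Capitals mark TGATGNAA, the composite site of ATF4 and C/EBP proteins, on either strand.

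CHAC1: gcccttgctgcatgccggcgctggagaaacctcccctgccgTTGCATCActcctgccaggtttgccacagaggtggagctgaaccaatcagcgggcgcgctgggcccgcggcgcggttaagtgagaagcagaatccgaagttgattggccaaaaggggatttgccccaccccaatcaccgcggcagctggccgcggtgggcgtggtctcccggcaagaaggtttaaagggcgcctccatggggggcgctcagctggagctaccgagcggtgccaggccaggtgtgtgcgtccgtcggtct
ASNS: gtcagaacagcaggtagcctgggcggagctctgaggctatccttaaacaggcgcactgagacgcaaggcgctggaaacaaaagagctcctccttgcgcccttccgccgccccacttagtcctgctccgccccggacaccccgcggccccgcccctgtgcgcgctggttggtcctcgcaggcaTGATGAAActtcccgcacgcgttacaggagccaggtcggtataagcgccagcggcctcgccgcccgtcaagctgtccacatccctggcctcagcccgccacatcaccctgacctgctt

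The CHAC1 window is chr15:40953221-40953520 on the plus strand, with a match at -209, and the ASNS window is chr7:97872359-97872658 on the minus strand, with a match at -68. Of the 13 risen members with a RefSeq promoter 3 held the motif, and of the 10 others 5 did, so the letters in this window did not separate members that rose from those that did not. They were in 3.67% of all promoters and 1.88% of those of tested genes.

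Of 34 tested genes of cholesterol and fatty acid synthesis 20 rose and none fell, with a median of 1.3. STARD4, a sterol carrier, rose most, from 18.4, 21.4 and 18.2 TPM to 97.6, 99.8 and 112 TPM. HMGCS1, an early enzyme of the pathway, rose from 23.1 ± 0.89 to 66.8 ± 4.4 TPM, and ELOVL6, a fatty acid elongase, from 4.84 to 21.0 TPM. ABCA1 and ABCG1, which export cholesterol, rose as well, to 15.4 and 12.8 TPM. SREBF2, the factor that drives the pathway, rose 1.65-fold and so was not called. The sterol response letters TCACNCCAC were in none of the 16 promoters of risen members available and in 1.15% of all promoters.

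Of 33 genes of glycolysis and the hypoxia response 14 rose and 2 fell, with a median of 0.76. Of the glycolytic enzymes HK1, PFKM and ENO2 rose, while ALDOA, TPI1, GAPDH, PGK1, PGAM1, ENO1, PKM and LDHA were not called. The enzymes thus did not rise as a group. SLC2A3, a glucose transporter, rose from 7.14, 7.17 and 7.25 TPM to 253, 271 and 281 TPM (39.2-fold, log2 5.29, SE 0.12). PFKFB4, which promotes glycolytic flux, rose from 2.46 to 38.6 TPM, and the enzyme genes GPI and ALDOC fell, GPI from 782 ± 44.8 to 365 ± 8.18 TPM. None of 51 nuclear-encoded subunits of the respiratory chain was called by edgeR or by DESeq2, although 30 had an unadjusted p under 0.05. Their median was -0.01, with a range from -0.68 to 0.42.

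Ribosome biogenesis fell as a group. Of 34 tested genes that MYC drives or that build ribosomes 21 fell and none rose, and the median was -1.24. UTP20, a part of the small subunit processome, fell from 22.0, 21.6 and 23.3 TPM to 4.44, 4.65 and 4.80 TPM (log2 -2.35, SE 0.06). NOP16 fell from 186 ± 9.28 to 49.0 ± 3.71 TPM, NOP2, an rRNA methyltransferase, from 161 ± 10.9 to 44.3 ± 4.23 TPM and NOP56 of the box C/D particles from 562 ± 7.82 to 223 ± 7.53 TPM. MYC itself was at 681, 690 and 692 TPM in DMSO and 446, 422 and 389 TPM at 72 h, a log2 change of -0.85 (SE 0.07) that did not reach 2-fold. The 78 cytosolic ribosomal proteins, the products that such factors assemble, had 0 calls by edgeR and by DESeq2 and a median of -0.32. An unadjusted p under 0.05 was found for 72 of them. In 71 of them the decrease passed an adjusted p of 0.05, and their summed level was 176079 to 181431 TPM in DMSO and 151594 to 155964 TPM at 72 h.

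Of 38 tested genes of DNA replication 4 fell, MCM4, MCM10, PCNA and FEN1, with a median of -0.63, and of 32 mitotic genes CDC20 alone was called. FEN1, the flap endonuclease, fell from 94.8 ± 1.16 to 36.1 ± 1.42 TPM. PCNA, MCM4 and MCM10 lay close to the fold limit at log2 changes of -1.07, -1.14 and -1.12. Of these calls only that of FEN1 was kept under every scaling and both limma settings. MCM4, MCM10 and CDC20 lost theirs with limma at either pseudocount, PCNA with limma on log2(TPM + 1) and with total count scaling, and CDC20 also with total count and upper quartile scaling.

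Redox genes did not move as a block. Of 37 tested genes of glutathione, thioredoxin and peroxide defence 4 rose and 3 fell, with a median of 0.08. NQO1, a quinone reductase, fell from 26.3, 30.4 and 31.7 TPM to 5.08, 4.52 and 4.47 TPM, and GCLM, a subunit of the enzyme that starts glutathione synthesis, from 33.2 ± 2.07 to 8.98 ± 0.74 TPM. HMOX1, which degrades heme, fell from 41.9, 54.0 and 51.8 TPM to 3.69, 4.56 and 4.44 TPM (log2 -3.60, SE 0.11). These 3 genes are known targets of NRF2, but they were named for their large falls. Of the redox list GCLC, GSR, TXNRD1, SRXN1 and PRDX1 were not called, nor was NFE2L2, which encodes NRF2. KEAP1, which restrains NRF2, fell from 118 to 53.0 TPM. The activity of NRF2 was not tested. SOD1, the cytosolic superoxide dismutase, was at 122, 138 and 137 TPM in DMSO and at 143, 146 and 151 TPM at 72 h, a log2 change of 0.06 (SE 0.06, adjusted p = 0.35). TXNIP, which binds thioredoxin and lowers glucose uptake, rose from 59.5 ± 2.80 to 341 ± 18.3 TPM.

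Heat shock proteins, which fold other proteins, fell among the most abundant genes. Of 28 tested 8 fell and 1 rose, with a median of -0.46. HSPA8 fell from 3174, 3316 and 3288 TPM to 1049, 966 and 951 TPM (log2 -1.84, SE 0.06), HSP90AA1 from 1068 ± 36.2 to 404 ± 12.6 TPM and HSPH1 from 330.0 ± 15.4 to 81.3 ± 3.48 TPM. HSPA1A and HSPA1B, near copies that share reads, fell from 128 to 19.5 TPM and from 162 to 26.0 TPM.

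The promoters of HSPA8 and DNAJA1, which encodes its cochaperone, are shown as those of fallen members that held the heat shock letters. Capitals mark the heat shock letters GAANNTTC, which read the same on both strands.

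HSPA8: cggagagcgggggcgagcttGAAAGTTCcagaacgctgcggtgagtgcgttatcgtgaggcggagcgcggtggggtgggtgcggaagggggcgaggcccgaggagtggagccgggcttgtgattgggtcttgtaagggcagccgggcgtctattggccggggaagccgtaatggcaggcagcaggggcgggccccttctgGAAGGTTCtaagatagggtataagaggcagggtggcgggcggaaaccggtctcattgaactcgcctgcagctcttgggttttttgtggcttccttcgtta
DNAJA1: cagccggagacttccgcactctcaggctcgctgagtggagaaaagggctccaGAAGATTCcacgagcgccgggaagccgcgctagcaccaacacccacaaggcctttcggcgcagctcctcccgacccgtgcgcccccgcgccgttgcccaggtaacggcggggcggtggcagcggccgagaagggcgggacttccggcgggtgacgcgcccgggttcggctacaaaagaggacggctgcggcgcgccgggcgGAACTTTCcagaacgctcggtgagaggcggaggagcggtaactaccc

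The HSPA8 window is chr11:123062087-123062386 on the minus strand, with matches at -230 and -50. The DNAJA1 window is chr9:33025023-33025322 on the plus strand, with matches at -198 and 4. The letters were in 4 of 8 fallen members, in 2 of 19 others and in 6.87% of all promoters, 4.81% of those of tested genes. Since HSPA1A and HSPA1B are copies, they count as 2 of the 4.

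**Figure D4:**
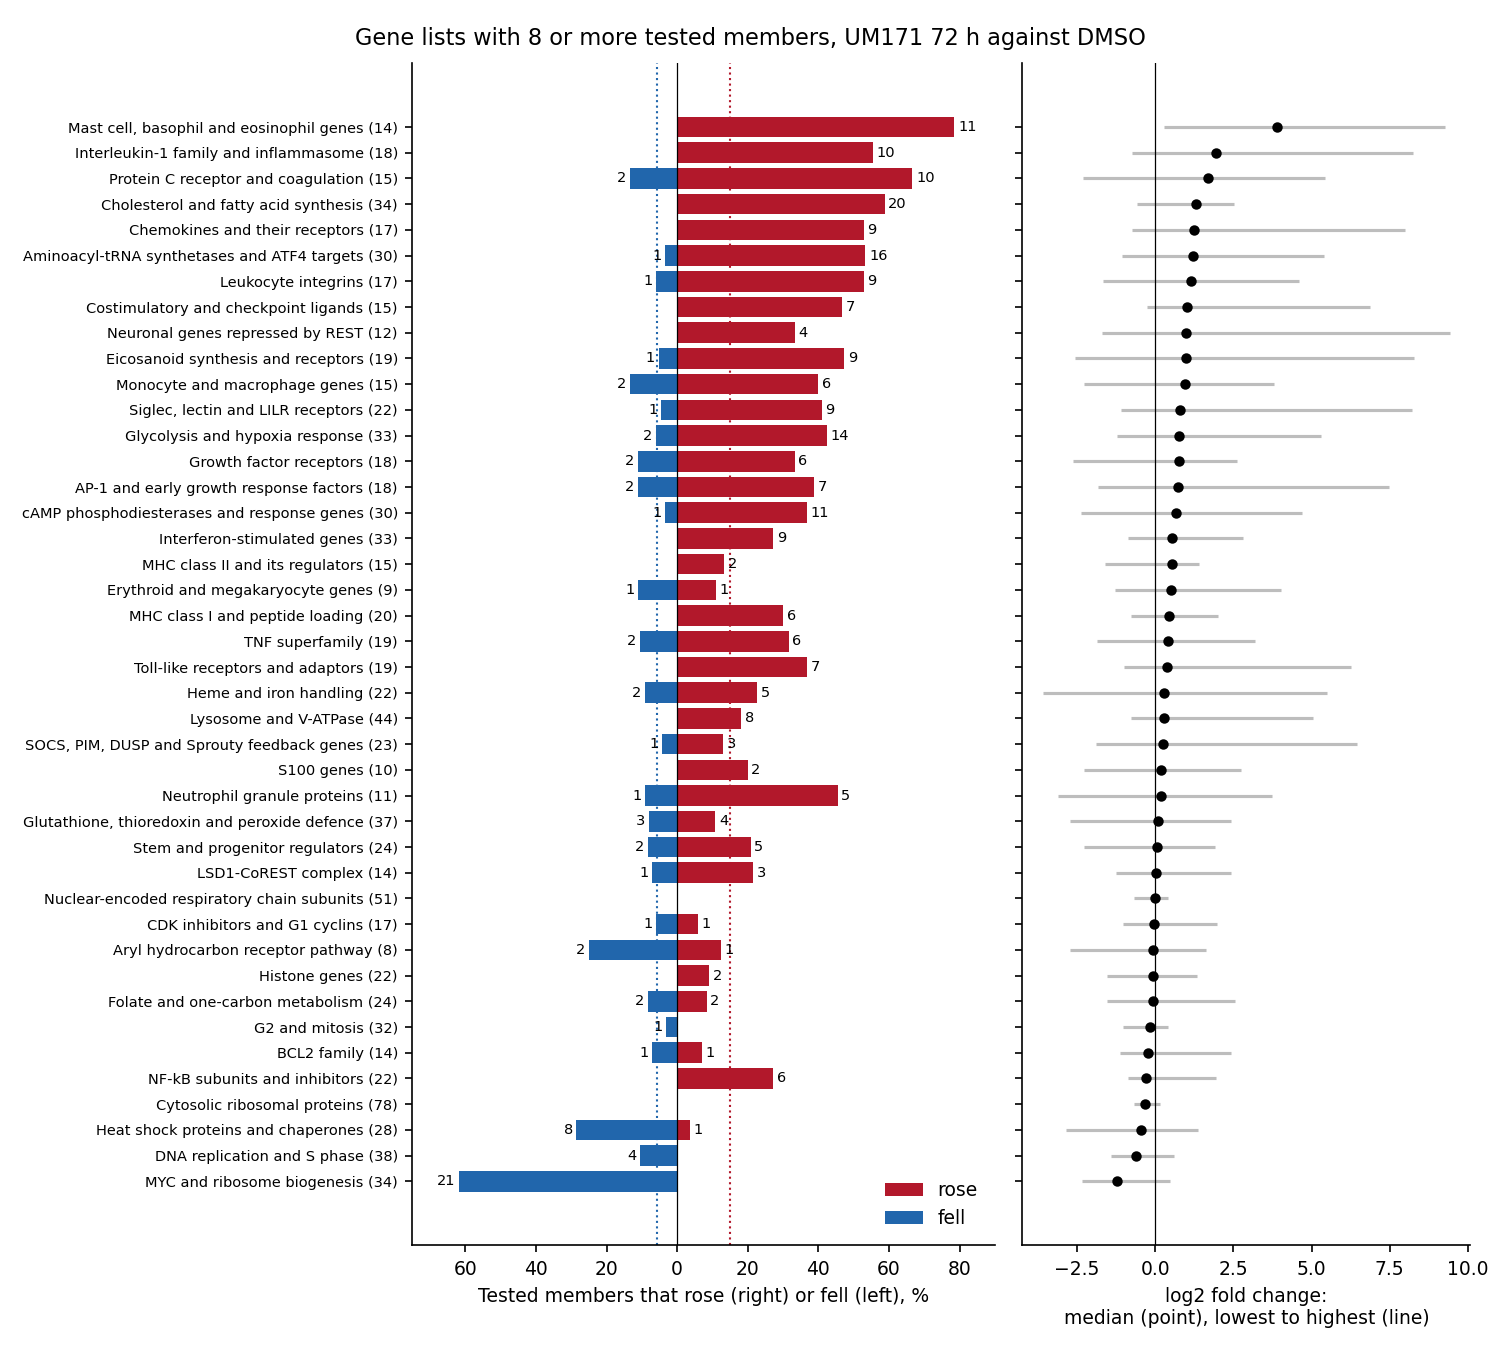
For the lists with at least 8 tested members (number in brackets), the left panel gives the percentage that rose (red) or fell (blue) with counts at the bar ends, and dotted lines at 15% and 5.8% for all tested genes. The right panel gives the median (point) and range (line) of the log2 fold change, from 3.89 for mast cell, basophil and eosinophil genes to -1.24 for ribosome biogenesis.

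Across the 43 lists 987 genes were tested, of which 237 rose and 67 fell. The lists share genes and were drawn up with a view to this treatment, so their shares are descriptions beside the 15% and 5.8% of all genes. The lists of cytokine feedback genes, histones, BCL2 family members, folate enzymes and cell cycle inhibitors had shares of risen genes below that of all genes. The folate enzymes SHMT2 and MTHFD2, which rose, were counted with the ATF4 targets and not in the folate list. Lysosome genes stood close to it, with 8 of 44 risen, CTSL from 5.30 to 33.7 TPM and ATP6V0D2 from 0.26 to 8.76 TPM among them.

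In TPM, the gains among called nuclear genes with a symbol were led by B2M, the light chain of MHC class I, from 1836, 2335 and 2158 TPM to 5549, 5520 and 5689 TPM. It was followed by CCL2, CXCL8, HGF, LYZ and TIMP1. HGF, hepatocyte growth factor, went from 431 ± 8.66 to 1423 ± 38.0 TPM and TIMP1, a metalloproteinase inhibitor, from 128 ± 9.24 to 695 ± 40.5 TPM. GLUL, glutamine synthetase, went from 376 to 879 TPM. The losses were led by ACTB, cytoplasmic actin, from 8335 ± 525 to 3949 ± 194 TPM, and HSPA8, followed by HSP90AA1, PNP, MAT2A and GPI. MAT2A, which makes S-adenosylmethionine, fell from 750 ± 5.43 to 284 ± 17.7 TPM. TPM sum to the same total in each library, so gains and losses of such abundant genes are not independent.

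The last day of exposure was examined by setting 72 h against 48 h in the same fit. The DMSO libraries of unedited cells are all labelled 72 h, so the 48 h libraries have no control of their own time. A further day in UM171 and a further day in culture therefore cannot be told apart in this comparison. Of the 16575 genes 430 were higher at 72 h (2.59%) and 126 lower (0.76%). Of the genes that had risen over DMSO 231 were higher at 72 h than at 48 h and 15 lower, and of those that had fallen 38 were lower and 13 higher. A further 186 genes were higher and 73 lower at 72 h than at 48 h without a call against DMSO. The third 48 h library had the highest mitochondrial share of the 6 libraries compared here, 13.5%, and without it 413 genes were higher and 125 lower.

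Of 30 tested synthetases and ATF4 targets 4 were higher at 72 h than at 48 h, DDIT4, CHAC1, ASNS and WARS1, and none lower, with a median of 0.43. DDIT4 went from 85.4, 110 and 74.1 TPM at 48 h to 301, 380 and 355 TPM at 72 h (log2 1.85, SE 0.11), and CHAC1 from 15 to 58.7 TPM (log2 1.89, SE 0.08). Outside that list GDF15, a stress-induced hormone, went from 5.19 to 31.1 TPM, from 0.45 TPM in DMSO. TXNIP was at 59.5 TPM in DMSO, 85.2 TPM at 48 h and 341 TPM at 72 h. ASS1, argininosuccinate synthase, was below DMSO at 48 h, 60.2 against 97.3 TPM, and above it at 72 h, at 360, 356 and 341 TPM (log2 2.49, SE 0.05, adjusted p = 5.5e-15 against 48 h).

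Some myeloid genes rose mainly in the last day. C5AR1, the receptor of complement C5a, was at 0.69, 0.49 and 0.72 TPM in DMSO, 2.37, 2.47 and 1.72 TPM at 48 h and 18.9, 20.5 and 19.0 TPM at 72 h. CTSG, the granule protease cathepsin G, was at 31.5 TPM in DMSO, 34.3 TPM at 48 h and 143 ± 11.1 TPM at 72 h. AOAH, which inactivates endotoxin, and SYTL1, an exocytosis adaptor, rose from 2.81 to 11.6 TPM and from 4.07 to 18.2 TPM between 48 and 72 h. HLA-E, an MHC class I gene, was at 148 ± 13 TPM in DMSO, 169 TPM at 48 h and 342 ± 25.7 TPM at 72 h. Its change from 48 h, log2 0.97 (SE 0.06), stayed under 2-fold, while that of HLA-F, 1.07 (SE 0.10), was called.

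Heat shock genes fell in the same day. Of the 28 tested 11 were lower at 72 h than at 48 h and none higher. HSPA8 was at 2618, 2745 and 2931 TPM at 48 h, against 1049, 966 and 951 TPM at 72 h. HSP90AA1 was at 1314 TPM at 48 h, above its 1068 TPM in DMSO, and at 404 TPM at 72 h (log2 -1.79, SE 0.05). HSPE1, the mitochondrial cochaperonin, was at 405 TPM in DMSO, 502 TPM at 48 h and 189 TPM at 72 h. Of 38 DNA replication genes 10 were lower at 72 h than at 48 h, FEN1 from 81.5 to 36.1 TPM. MLLT11 and the ganglioside synthase B4GALNT1 fell back from 9.61 to 2.35 TPM and from 25.6 to 7.71 TPM while staying above DMSO. The detoxification gene SOD1 was at 266 TPM at 48 h and 146 TPM at 72 h, a log2 change of -0.96 (SE 0.06) that did not reach 2-fold.

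**Figure D5:**
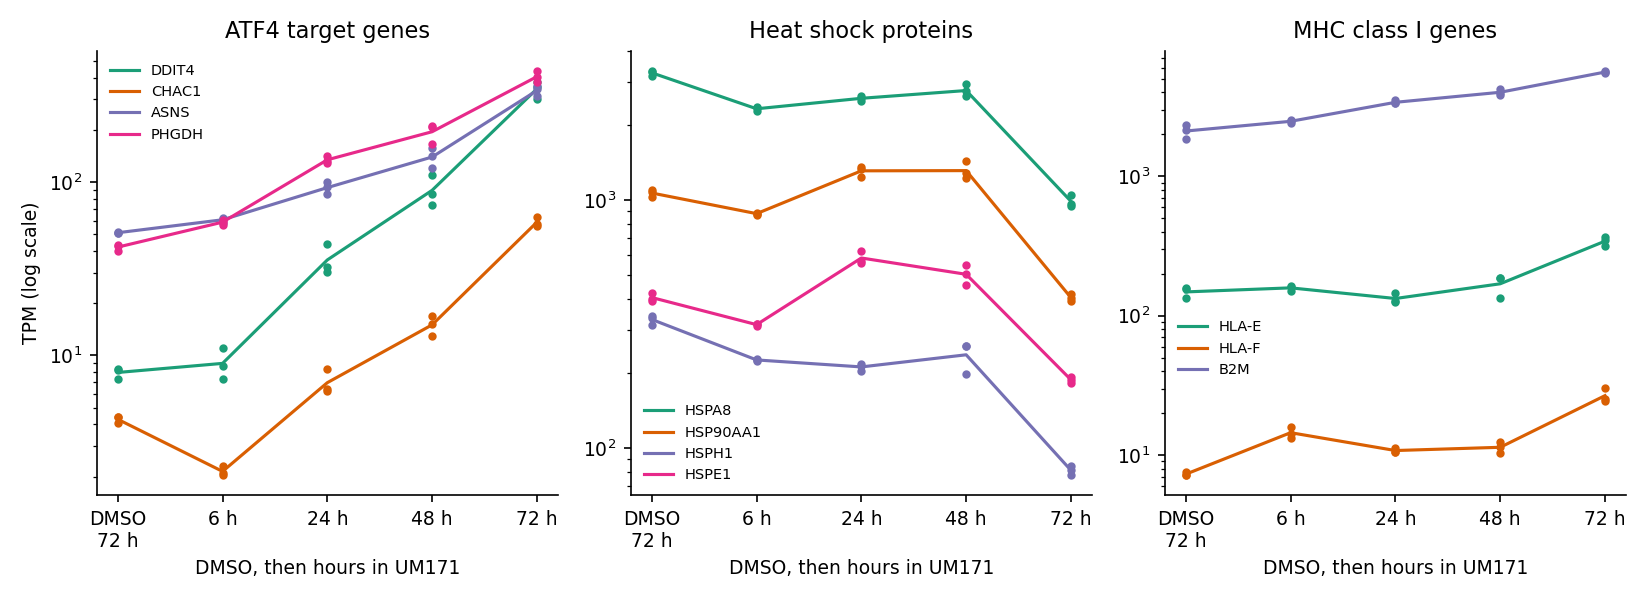
TPM of each library (points) and group means (lines) on logarithmic axes for DMSO and for 6, 24, 48 and 72 h in UM171. The 4 heat shock genes are lower at 72 h than in every other group, and HLA-E lies within 125 to 187 TPM in every group before 72 h.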

How the data were processed

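Poly(A) RNA of OCI-AML5 cells was sequenced from stranded libraries. Per the labels, reads were processed with CASAVA 1.8.2, Trimmomatic 0.35, STAR 2.5.1b and RSEM 1.2.28 on GRCh38. For each library the authors deposited RSEM expected counts per gene, not normalized, in which reads shared between genes are divided, and TPM, which RSEM scales to the same total per library. Counts of 45 pseudoautosomal genes listed for both X and Y were added up, leaving 58174 genes, of which 57392 had a symbol. Positions and gene classes came from GENCODE 44 on GRCh38, and promoters from RefSeq.

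Expected counts were rounded and fitted with edgeR 4.0.16 in R 4.3.3 (filterByExpr, TMM, quasi-likelihood test) over the 15 libraries of unedited cells in 5 groups. DESeq2 1.42.0 and limma 3.58.1 on log2(TPM + 1) and log2(TPM + 0.1) served as alternatives. The SE was taken from the log2 fold change and its quasi-likelihood F, as the ratio of the former to the root of the latter. A floor of 3 counts and the exact binomial intervals at 95% cover counting error only. Libraries of 1 group differed by more than sampling noise, so each was counted as a sample of its own.

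The gene lists were chosen with earlier results of these data known, and 1204 of 1213 list genes were matched by current or older symbols. Genes were named by rule: up to 4 called members of a list with the largest change, the 20 largest rises and 15 largest falls among genes with an average log2 CPM over 2 and no overlap between groups, the 10 largest TPM gains and losses, the 10 highest genes silent in DMSO, 8 changes each way from 48 to 72 h, the study's examples IL1B, CD86, PROCR and SOD1, and genes of background sentences. Other genes in the text were chosen after their values were seen, most of them as list members or markers. DNASE2 is neither.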

Additional observations from a re-analysis of the deposited data

How the results depend on the processing

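The number of genes changed at 72 h, 3448, stayed within 1.5 times under DESeq2 (3461), other scalings, other filters and the fit of the 6 libraries alone. It moved to 2263 with limma on log2(TPM + 1), where low genes change less by construction and 558 genes were lower, and to 12533 (6436 higher, 6097 lower) at an adjusted p under 0.05 with no minimum fold. Leaving out each library in turn gave 3192 to 3258 genes, 2265 to 2345 of them higher and 885 to 944 lower.

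The comparison of 72 h with 48 h was more sensitive. From 556 genes, it went to 287 (245 higher, 42 lower) with limma on log2(TPM + 1), to 1219 (955 higher, 264 lower) at an adjusted p under 0.05 and over 2-fold, and to 9493 (4648 higher, 4845 lower) without a minimum fold. The lower genes went from 126 to 63 with limma on log2(TPM + 0.1) and to 192 without a filter on low counts. Leaving out 1 library gave 446 to 538 genes, 320 to 413 higher and 110 to 126 lower.

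Whether replicate numbers pair the libraries is not settled. Deviations from the group means of same-numbered DMSO and 72 h libraries correlated weakly, at 0.234, 0.058 and 0.161 over 11214 genes. Each 72 h library was closest to the DMSO library of its number, although the second DMSO library was closest to the third UM171 library. Same-numbered 48 h and 72 h libraries correlated at -0.192, -0.009 and -0.206, and the highest values lay between different numbers. The first 48 h library correlated at 0.262 with the second 72 h library, the second at 0.355 with the third and the third at 0.362 with the first. A block by number does not join these closest libraries. With the number as a replicate block 3330 genes were called, 2395 higher and 935 lower, and 501 between 72 and 48 h.

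Among the named genes KDM1A, at 0.01, changed sign, to -0.005 without a filter, and ranged from -0.005 to 0.026 with 1 library left out. Under the replicate block the calls of AMT, IFI44L, IL1R2 and IL2RA were lost, and limma on log2(TPM + 1) lost 33 of 219 calls or values checked. Depth limits genes of a few counts, for which the fitted change depends on the prior count.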

Other observations

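Genes that answer to cAMP and G proteins were not described above. Of 30 tested cAMP phosphodiesterases and response genes 11 rose and 1 fell, with a median log2 fold change of 0.65. RGS1 and RGS2, which shorten G protein signals, rose from 0.54 to 14.2 TPM and from 4.44 to 56.8 TPM, and PDE4B, which breaks down cAMP, from 0.55 to 7.50 TPM. ADORA2A, an adenosine receptor coupled to cAMP, rose from 1.53 to 10.5 TPM while ADORA3 fell from 12.6 to 5.46 TPM. A list of 38 genes held REST and neuronal genes known to be repressed by it. Only 12 could be tested, since the others were too low. Of these 12 genes 4 rose and none fell, beside 15% and 5.8% of all tested genes. The counts describe only members that some group expressed. SCN3A, a sodium channel, had 0 counts in DMSO and 84 to 88 counts in the UM171 libraries, at least 82.7-fold higher than a floor of 3 counts over the group, and CHGB, chromogranin B, rose from 0.05 to 1.03 TPM.

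In the aryl hydrocarbon receptor list AHR rose from 14.8 to 48.0 TPM, while its repressor AHRR fell from 37.8 to 16 TPM and the target gene NQO1 fell as given above. S100P was at 8.18 TPM in DMSO, 0.85 TPM at 48 h and 29.2 TPM at 72 h, so its level lay below and then above that of DMSO. The noncoding RNA BCYRN1 was at 17.8, 35.8 and 43.6 TPM in DMSO and at 114, 170 and 157 TPM at 72 h, against 468, 383 and 550 TPM at 48 h. HMOX1, IL6R and MPEG1 were at 6.36, 50.8 and 4.08 TPM at 48 h, close to their levels of 4.23, 44.2 and 5.0 TPM at 72 h.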
